A study of Mus musculus with 74 samples.

Results

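Nf1/Rasa1 tumours were lung tumours whose virus carried a guide RNA against Nf1 and a guide RNA against Rasa1, in either of the 2 guide places. Of 378754 tumours listed in 74 mice, 4909 were of this kind. They were set against 7408 tumours with an Nf1 guide beside an inert guide (Nf1/inert), 6546 with a Rasa1 guide beside an inert guide (Rasa1/inert) and 2973 with different inert guides in both places (inert/inert). Inert guides are those that the table names safe, NT or EGFP, which stand for guides without a target gene. All mice carried the background that the labels call KT, which includes a Tomato reporter. The 9 KT mice had no Cas9, so that guides could not cut. The label H11-Cas9 applied to 45 mice. The label H11-LSL-Cas9 applied to 20 mice, whose Cas9 is made once Cre has removed a stop cassette. Every mouse received the Lenti-U6BC-sgDbl/Cre pool, in which each virus brings Cre, a barcode and a pair of guides. Lungs were taken after about 3 months, and the barcode and guides were amplified from 32 µg of DNA of the whole lung, with 1 library per mouse. Age, sex and viral dose of the mice were not given in the sources used here.

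Nf1 encodes neurofibromin and Rasa1 encodes p120-RasGAP. Both are GTPase-activating proteins, which speed the hydrolysis of GTP by RAS proteins and so return them to the inactive state. Both genes are known as tumour suppressors, and NF1 is recurrently mutated in human lung adenocarcinoma. Targeting both genes in the same cell asks whether removing a pair of brakes on RAS does more than removing either alone.

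The 45 mice with H11-Cas9 held 2259 Nf1/Rasa1 tumours, the 20 with H11-LSL-Cas9 held 668, and the KT mice 1982. Each KT mouse held 124 to 393 of them (median 202), each H11-Cas9 mouse 26 to 111 (median 47) and each H11-LSL-Cas9 mouse 0 to 61 (median 34.5). Inert/inert tumours were the scarcest of these 4 genotypes, with a median of 136 inert/inert tumours per KT mouse, 24 per H11-Cas9 mouse and 19 per H11-LSL-Cas9 mouse. KT libraries had 1.43e+06 to 1.12e+07 reads, H11-LSL-Cas9 libraries 37 to 1.16e+06, and H11-Cas9 libraries 118601 to 6.26e+06. The cells that a read stood for had a median over mice of 4.82 (KT), 7.96 (H11-Cas9) and 12.9 (H11-LSL-Cas9), so sizes in H11-LSL-Cas9 were the coarsest. The smallest tumour listed had 50.1 cells, and smaller ones could not be counted. This limit differed between mice. The smallest tumour of a mouse held up to 56.2 cells in KT (median 52.3), 105 in H11-Cas9 (median 54.4) and 369 in H11-LSL-Cas9 (median 56.9). The mouse names of the H11-LSL-Cas9 group began with letters found in no other group, so effects of the allele and of whatever those letters stand for cannot be told apart. The deposited spike-in total was near 100000 cells in 5 KT and 25 H11-Cas9 mice and near 300000 cells in all others. Those 5 KT mice had names beginning with SL and 6 H11-Cas9 mice with CM, letters also found in no other group. The 25 H11-Cas9 mice near 100000 cells all began with LA. Near 100000 cells, Cas9 and the letters therefore cannot be told apart in comparisons with KT.

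Size is given below as log2 cells, averaged over the tumours of a genotype in a mouse and compared with another genotype of the same mouse. A difference of 1 on this scale is a 2-fold difference in the geometric mean. Mice are the replicates, and the guide pairs in a mouse are not. P-values come from 2-sided sign-flip permutation tests over mice, adjusted by the Benjamini-Hochberg method over all genotypes of the same kind in the pool, and a call is an adjusted p under 0.05.

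In mice with H11-Cas9, tumours with both genes targeted were larger than inert/inert tumours and larger than Rasa1/inert tumours, and their difference from Nf1/inert tumours was near 0. The geometric mean of Nf1/Rasa1 tumours ran from 165 to 612 cells per mouse (median 258). Inert/inert tumours of the same 45 mice ran from 108 to 394 cells (median 180). Rasa1/inert tumours had a median of 205 cells (from 118 to 443) and Nf1/inert tumours 250 cells (from 150 to 882). The ranges over mice overlapped widely, since mice differed in overall tumour size, and the comparison therefore rests on differences inside each mouse.

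**Figure D1:**
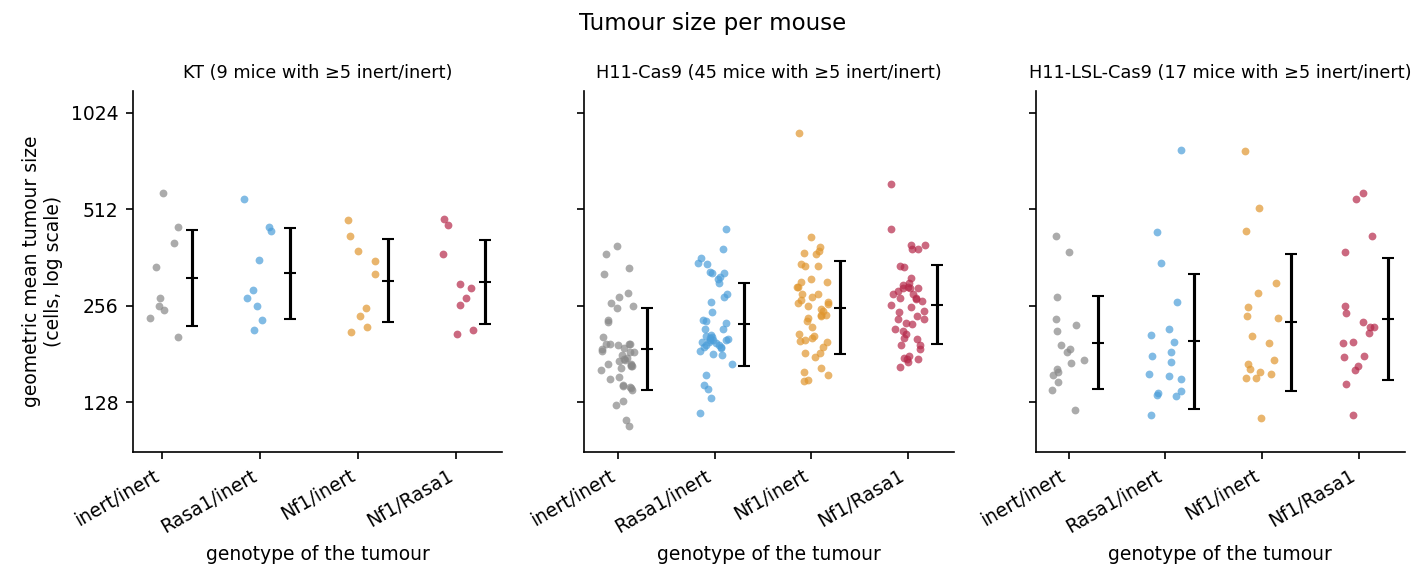
Geometric mean tumour size per mouse in cells (vertical axis, log scale) for the 4 genotypes (horizontal axis) in each group of mice. Each point is a mouse with at least 5 tumours of that genotype, and the black bar is the mean ± SD on the log2 scale. In H11-Cas9 the median rose from 180 cells in inert/inert to 258 cells in Nf1/Rasa1 tumours, while in KT all genotypes covered similar ranges.

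Inside the mouse, Nf1/Rasa1 minus inert/inert ran from -0.49 to 1.61 (median 0.48), and it was above 0 in 42 of 45 mice. Its mean of 0.46 ± 0.06 (SE) is a 1.37-fold larger geometric mean, with a 95% interval of 1.27 to 1.48 and an adjusted p of 5.3e-05, from the smallest p that the resampling can give. Of the 106 gene pairs testable in H11-Cas9, 35.8% passed as larger than inert/inert, and the median over pairs was 0.18. Nf1/inert tumours were larger by 0.43 ± 0.06 (40 of 45 mice, adjusted p = 4.25e-05), a 1.35-fold difference. Rasa1/inert tumours were larger by 0.25 ± 0.04 (37 of 45 mice, adjusted p = 4.25e-05), a 1.19-fold difference. Taking the largest tumours of each genotype in numbers matched to its share in KT (adaptive sampling, from 50% of the inert/inert number) gave a larger Nf1/Rasa1 effect (1.31, adjusted p = 3.46e-05). By this choice the excess over Nf1/inert was 0.19 (adjusted p = 0.145) and over Rasa1/inert 0.73 (adjusted p = 4.79e-05). Under adaptive sampling a genotype more numerous than in KT keeps a smaller top part of its tumours. These values therefore hold changes in number as well as in size, and cannot separate them. The arithmetic mean, which the largest tumours dominate, differed from inert/inert by 1.69 (adjusted p = 4.24e-05). Of 17 genes beside an inert guide, 64.7% passed as larger and 70.6% in either direction, while 0.943% of pairs passed as smaller.

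Adding Rasa1 targeting to Nf1 targeting gave no detectable further increase in mean size. Nf1/Rasa1 minus Nf1/inert ran from -0.60 to 0.56 and was above 0 in 22 of 45 mice, with a mean of 0.03 ± 0.04 and an adjusted p of 0.729. The 95% interval of this difference was 0.962 to 1.08-fold. Adding Nf1 targeting to Rasa1 targeting did increase size. Nf1/Rasa1 minus Rasa1/inert ran from -0.74 to 1.01 and was above 0 in 35 of 45 mice, with a mean of 0.20 ± 0.05 (1.15-fold, adjusted p = 0.00538). Of all 229 additions of a gene in the pool, 12.7% passed as an increase and 4.37% as a decrease. Here and below, the additions counted in the pool include the steps from inert/inert to a single gene. Of these 17 steps, 64.7% passed as larger when adjusted among themselves, so the share among additions to a targeted gene is lower. With the mice near 300000 spike-in cells alone, the increase over Rasa1/inert was 0.17 (20 mice, adjusted p = 0.272), and on the scale of the median tumour it was 0.16 (adjusted p = 0.0518).

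The size interaction is the Nf1/Rasa1 effect minus the sum of both single effects in the same mouse, so that 0 means the single effects add on the log2 scale. In H11-Cas9 it ran from -1.50 to 0.43 with a median of -0.10, and it was below 0 in 26 of 45 mice. Its mean was -0.22 ± 0.06 (95% interval -0.35 to -0.10, adjusted p = 0.00883). Across the pool 20.8% of 106 interactions passed as negative, 0.943% as positive, and their median was -0.21, so the Nf1/Rasa1 value lay at the middle of the pool. The 3 single and paired effects share the inert/inert tumours of the mouse, whose error enters the interaction. The call was lost for the median tumour (-0.09, adjusted p = 0.663), for the arithmetic mean (-0.48, adjusted p = 0.109), and in the mice near 300000 spike-in cells (-0.15, adjusted p = 0.562). The difference from the KT interaction was -0.17 ± 0.09 and did not pass (studentised permutation, adjusted p = 0.399).

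Without Cas9 the same constructs showed no called size difference. In the 9 KT mice Nf1/Rasa1 minus inert/inert ran from -0.56 to 0.23 (median 0.03), with a mean of -0.04 ± 0.09 (exact sign-flip p = 0.648). Nf1/inert stood at -0.03 ± 0.06, Rasa1/inert at 0.04 ± 0.05 and the interaction at -0.06 ± 0.07 (exact p = 0.406). None of 134 gene pairs passed in KT after adjustment, and 5 had an unadjusted exact p under 0.05. The smallest exact p that 9 mice allow is 0.00391, so that a single pair among 134 could not have passed. Of the H11-Cas9 mice, 34 of 45 had a larger Nf1/Rasa1 effect than every KT mouse. The H11-Cas9 effect exceeded the KT effect by 0.50 ± 0.10 (studentised permutation, adjusted p = 0.00212), beside 19.8% of pairs that passed as higher. Within the spike-in totals this difference was 0.54 near 100000 cells (adjusted p = 0.142) and 0.45 near 300000 cells (adjusted p = 0.149), each with 4 or 5 KT mice.

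In mice with H11-LSL-Cas9 no difference in mean log2 size passed the test. Only 17 of 20 mice held at least 5 inert/inert tumours. Nf1/Rasa1 minus inert/inert ran from -0.66 to 0.63 (median 0.20) and was above 0 in 13 of 17 mice. The mean was 0.17 ± 0.08 (95% interval -0.01 to 0.35, adjusted p = 0.322), in a group where 2.73% of 110 pairs passed as larger and 3.64% in either direction. Nf1/inert stood at 0.11 ± 0.10 and Rasa1/inert at -0.10 ± 0.07, and neither passed (adjusted p = 0.841 for each). Nf1/Rasa1 exceeded Rasa1/inert by 0.23 ± 0.08 in 14 of 18 mice, which missed the threshold after adjustment (p = 0.00884, adjusted p = 0.138), beside 2.14% of 234 additions that passed as increases, 0.855% as decreases and 2.99% in either direction. Of 20 omissions of a mouse, only 1 brought the same comparison past it, that of mouse 8 (0.27, adjusted p = 0.0398). The adjusted p of the omissions rose to 0.227. Nf1/Rasa1 minus Nf1/inert was 0.03 ± 0.08 (95% interval -0.13 to 0.20), and the interaction was 0.16 ± 0.13 (95% interval -0.10 to 0.44). With adaptive sampling, which takes the largest tumours and in which number also enters, Nf1/Rasa1 exceeded inert/inert by 0.86 (adjusted p = 0.00280) and Rasa1/inert by 0.66 (adjusted p = 0.00558) in this group.

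**Figure D2:**
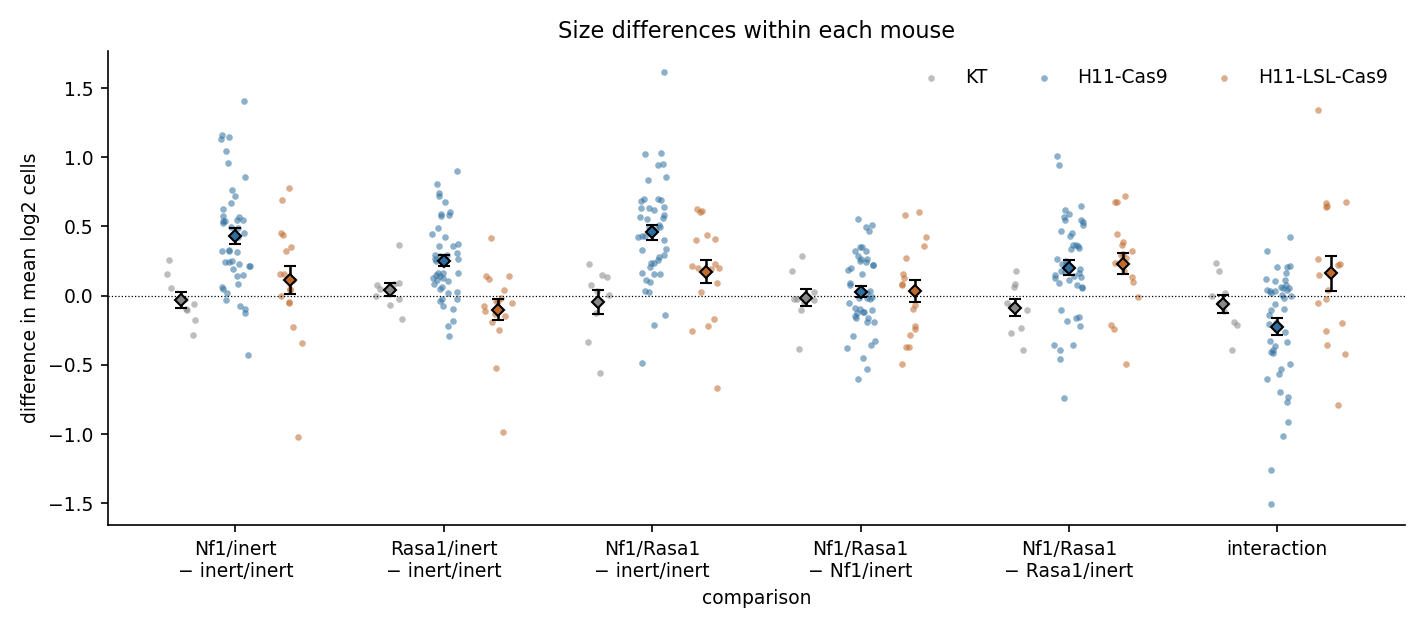
Differences in mean log2 cells inside each mouse (vertical axis) for the comparisons named on the horizontal axis, for each group of mice. Small points are mice and diamonds with bars are means ± SE. The Nf1/Rasa1 minus inert/inert mean was -0.04 for KT, 0.17 for H11-LSL-Cas9 and 0.46 for H11-Cas9 mice, while Nf1/Rasa1 minus Nf1/inert lay near 0 in all groups.

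Over all mice, the Cas9 groups differed in the size effects against inert/inert and in the interaction, and in neither addition was a difference detectable. Over 12 values compared by studentised permutation of mouse labels and adjusted together, the Nf1/Rasa1 size effect was 0.28 ± 0.10 higher in H11-Cas9 (adjusted p = 0.0200). Nf1/inert was 0.32 ± 0.12 higher (adjusted p = 0.0200) and Rasa1/inert 0.35 ± 0.08 higher (adjusted p = 0.00132). The interaction was -0.39 ± 0.14 apart (adjusted p = 0.0200), negative in H11-Cas9 and positive in H11-LSL-Cas9. For the addition of Rasa1 to Nf1 the groups differed by -0.0034 (95% interval -0.18 to 0.18), and for the addition of Nf1 to Rasa1 by -0.03 (95% interval -0.22 to 0.16). All H11-LSL-Cas9 mice had a spike-in total near 300000 cells, as had 20 H11-Cas9 mice. Between these mice alone the differences were 0.19 ± 0.12 for Nf1/Rasa1 (adjusted p = 0.203), 0.21 ± 0.12 for Nf1/inert (adjusted p = 0.187) and -0.32 ± 0.16 for the interaction (adjusted p = 0.119), and of the size effects Rasa1/inert alone passed (0.29 ± 0.10, adjusted p = 0.0206). Depth, mouse-name letters and the Cas9 allele also differed between the groups, and their parts in the differences cannot be told apart.

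Among large tumours of H11-Cas9 mice, each targeted genotype exceeded inert/inert, and the excess of Nf1/Rasa1 over Rasa1/inert did not pass. At the 90th percentile of each H11-Cas9 mouse, Nf1/Rasa1 tumours exceeded inert/inert tumours by 0.84 ± 0.11 (from -1.13 to 2.26, median 0.91). This is a 1.79-fold difference, seen in 37 of 44 mice (adjusted p = 4.79e-05), beside 49.3% of 67 pairs that passed as larger. Nf1/inert tumours exceeded inert/inert by 0.92 ± 0.15 and Rasa1/inert tumours by 0.60 ± 0.10 (adjusted p = 4e-05 for each), beside 56.2% of 16 genes. Nf1/Rasa1 minus Nf1/inert was -0.06 ± 0.10 (95% interval -0.26 to 0.14) and Nf1/Rasa1 minus Rasa1/inert 0.29 ± 0.12 (adjusted p = 0.0942), beside 15% of additions that passed as increases. The interaction at this percentile was -0.68 ± 0.14, below 0 in 32 of 44 mice (adjusted p = 0.00016). Across the pool 43.8% of 64 interactions passed as negative at this percentile, with a median of -0.41. In KT the same interaction was -0.21 ± 0.14, below 0 in 7 of 9 mice (exact p = 0.164), and the median of the KT pool was -0.15. In H11-LSL-Cas9 it was -0.05 ± 0.32 over 15 mice.

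Pooled over mice, with each tumour divided by the inert/inert geometric mean of its mouse, the genotypes spread apart toward the top. At the 95th percentile the ratio was 5.25 for inert/inert, 9.23 for Rasa1/inert, 12.7 for Nf1/inert and 13.4 for Nf1/Rasa1 tumours in H11-Cas9. At the 99th percentile it was 16.2, 29.99, 123 and 169 in the same order. Leaving out any mouse moved the last value between 153 and 175 and the Nf1/inert value between 106 and 127. In KT the 99th percentile lay between 14.3 and 16.03 for all 4 genotypes, and in H11-LSL-Cas9 it was 9.98, 17.03, 118 and 76.5. Pooled percentiles carry no test over mice, and mice with more tumours weigh more in them.

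**Figure D3:**
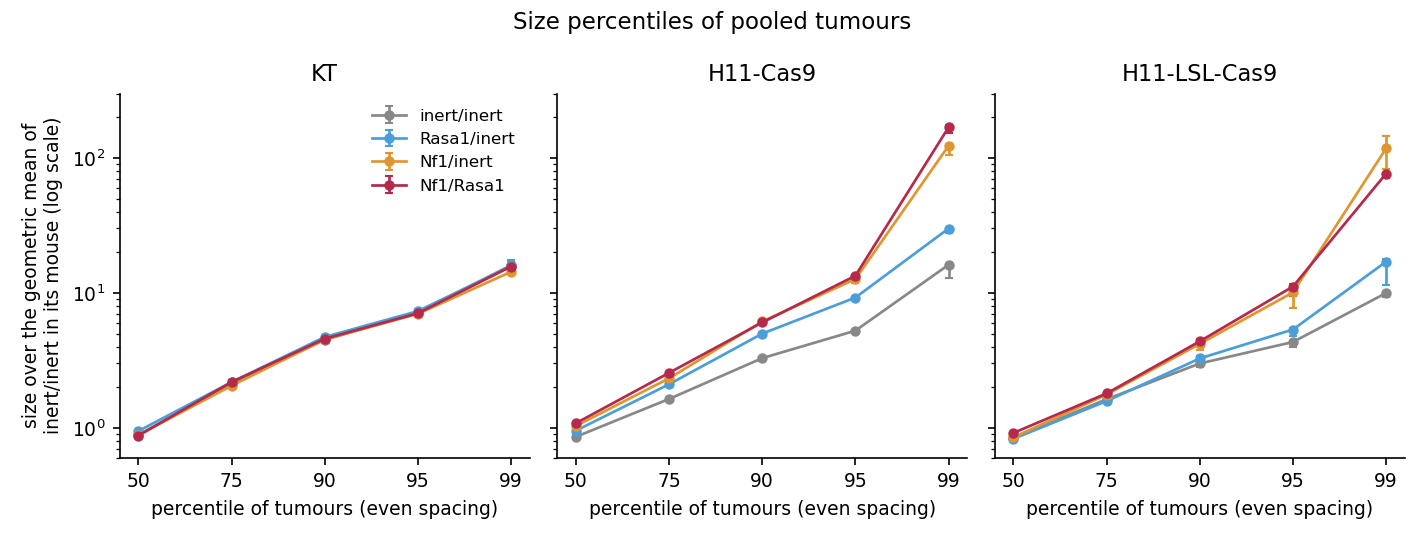
Tumour size divided by the inert/inert geometric mean of its mouse (vertical axis, log scale) at the 50th to 99th percentile of pooled tumours (horizontal axis, evenly spaced), for 4 genotypes in each group of mice. Bars give the range when any mouse is left out. The curves coincide in KT, and at the 99th percentile in H11-Cas9 they run from 16.2 for inert/inert to 169 for Nf1/Rasa1 tumours.

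Very large tumours, of at least 10000 cells, made up a larger share of Nf1/Rasa1 than of Rasa1/inert tumours in H11-Cas9, and no difference from Nf1/inert was detectable. In H11-Cas9 there were 44 such tumours among 2259 Nf1/Rasa1 tumours, in 27 of 45 mice. Nf1/inert gave 68 of 3234, in 32 mice, and Rasa1/inert gave 14 of 2604, in 11 mice. None of 1107 inert/inert tumours reached this size, which allows a share of up to 0.271%, and the largest Nf1/Rasa1 tumour held 335924 cells. Floors of this kind cover counting error alone. None of 1982 Nf1/Rasa1 tumours of KT mice reached it either, which allows up to 0.151%, and the largest there held 9952 cells. Their geometric mean was nonetheless larger, with a median over mice of 290 cells in KT and 258 in H11-Cas9. Summed cells of Nf1/Rasa1 tumours were 1.24e+06 in KT and 3.49e+06 in H11-Cas9. Among the KT controls the size of 10000 cells was reached by 1 inert/inert, 5 Nf1/inert and 7 Rasa1/inert tumours.

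As a share per H11-Cas9 mouse, tumours of at least 10000 cells made up 1.98% ± 2.27 (SD, n = 45) of Nf1/Rasa1 tumours, from 0 to 11.1% (median 1.56%). The share was 2.09% ± 2.75 for Nf1/inert and 0.510% ± 1.04 for Rasa1/inert tumours. With inert/inert at 0 in all 45 mice no difference from it could be negative, so no such test is reported here. The Nf1/Rasa1 excess over Rasa1/inert was 1.46 ± 0.35 (SE) percentage points, positive in 25 mice and negative in 4 (sign-flip p = 1e-05, adjusted p = 0.000176), beside 14.4% of additions. That share and the adjustment include the 17 steps from inert/inert to a single gene, which could not be negative. Of these, 52.9% passed when adjusted among themselves, so 14.4% is no fair background for this excess. Its difference from Nf1/inert was -0.11 ± 0.32 points (95% interval -0.75 to 0.52), and the interaction of -0.62 ± 0.33 points did not pass (adjusted p = 0.293). In mice near 300000 cells the excess over Rasa1/inert was 1.14 points and missed the threshold (adjusted p = 0.0695). At a limit of 1000 cells the shares were 11.2% for Nf1/Rasa1, 11.4% for Nf1/inert and 10.2% for Rasa1/inert tumours, and the excess over Rasa1/inert was 1.04 ± 1.05 points (adjusted p = 0.678).

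In H11-LSL-Cas9 very large tumours were likewise found among Nf1/Rasa1 and Nf1/inert tumours, and no test of the upper tail against inert/inert passed at the 90th percentile or at 1000 cells. Tumours of at least 10000 cells numbered 12 of 668 Nf1/Rasa1 tumours in 8 mice, 23 of 1022 Nf1/inert tumours in 11 mice and 2 of 918 Rasa1/inert tumours in 2 mice. None of 400 inert/inert tumours reached this size, which allows up to 0.75%. At the 90th percentile Nf1/Rasa1 exceeded inert/inert by 0.52 ± 0.24 (15 mice, adjusted p = 0.249), beside 5.19% of 77 pairs. The share of tumours of at least 1000 cells was 3.01 ± 1.70 points higher (17 mice, adjusted p = 0.349), beside 0.909% of 110 pairs. For tumours of at least 10000 cells, the excess of Nf1/Rasa1 over Rasa1/inert was 1.41 ± 0.53 points and missed the threshold (p = 0.00777, adjusted p = 0.118), beside 1.71% of additions. There too the additions and the adjustment include steps from inert/inert, whose share was 0 in all 17 mice tested. Whether these excesses differed between the Cas9 groups was not tested.

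Nf1/Rasa1 tumours were more numerous relative to inert/inert tumours in H11-Cas9 than in KT mice. The number of each genotype was taken over the inert/inert number of the same mouse, on the log2 scale with 0.5 added to each, and the KT mice gave the share of each construct without cutting. In KT mice the Nf1/Rasa1 ratio ran from 0.29 to 0.57 (median 0.47). In H11-Cas9 it ran from 0.14 to 2.77 (median 0.98), and 43 of 45 mice lay above every KT mouse. Nf1/Rasa1 tumours were 1.49-fold as many relative to inert/inert as in KT (0.58 ± 0.07, 95% interval 1.35 to 1.65-fold, studentised permutation, adjusted p = 2.62e-05). As background, 14.7% of 136 pairs passed as more numerous, 57.4% passed as less numerous, and the median over pairs was -0.56. A change in number here cannot be told apart from a change in how many tumours grew past the smallest size listed.

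Relative to KT, the number of Nf1/Rasa1 tumours over that of each single gene was also raised, though for Nf1/inert this depended on the setting. In count they were fewer than either, with medians per H11-Cas9 mouse of 47 Nf1/Rasa1, 68 Nf1/inert and 57 Rasa1/inert tumours. The values below are log2 ratios less the KT ratio, and the folds are taken from them. Nf1/inert tumours were 1.33-fold as many (0.41 ± 0.07, adjusted p = 0.000113) and Rasa1/inert tumours 1.15-fold (0.20 ± 0.06, adjusted p = 0.00708), beside 23.5% of 17 genes that passed as more numerous. Against KT, the ratio of Nf1/Rasa1 to Nf1/inert was higher by 0.17 ± 0.05 (1.13-fold, adjusted p = 0.00993) and that to Rasa1/inert by 0.38 ± 0.06 (1.301-fold, adjusted p = 0.000181), beside 22.8% of additions that passed as increases. By the plain difference of means, which does not divide by the standard error, the excess over Nf1/inert had an adjusted p of 0.201 and that of Rasa1/inert over inert/inert 0.143. The call over Nf1/inert was lost in 6 of 9 alternatives, among them the mice near 100000 (0.19, adjusted p = 0.0976) and near 300000 spike-in cells (0.15, adjusted p = 0.180). The number interaction was -0.03 ± 0.08 (95% interval -0.19 to 0.14, adjusted p = 0.916), beside 0.735% of 136 interactions that passed as negative and 11.8% as positive. For number, then, no departure from the sum of the single effects was detectable.

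**Figure D4:**
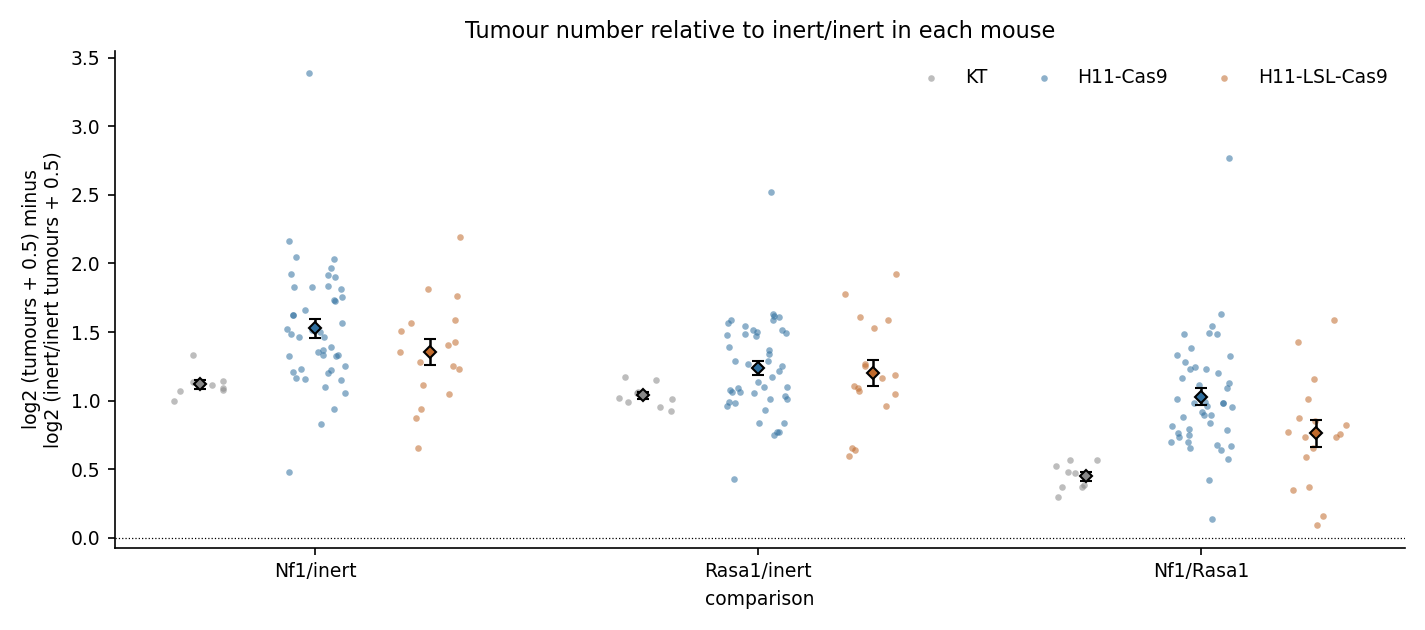
Tumours of each genotype over inert/inert tumours of the same mouse (vertical axis, log2 with 0.5 added to both numbers) in mice of each group with at least 5 inert/inert tumours. Points are mice and diamonds with bars are means ± SE. For Nf1/Rasa1 tumours, 43 of 45 H11-Cas9 mice and 13 of 17 H11-LSL-Cas9 mice lay above every KT mouse.

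In H11-LSL-Cas9 the Nf1/Rasa1 number ratio ran from 0.09 to 1.58 (median 0.75), and 13 of 17 mice lay above every KT mouse while 2 lay below. The difference from KT was 0.31 ± 0.10 (1.24-fold, adjusted p = 0.0194), beside 12.5% of pairs that passed as more numerous. It did not pass by the plain difference of means (adjusted p = 0.0947) or against the KT mice near 300000 cells alone (0.32, adjusted p = 0.0784). Nf1/inert stood at 0.24 ± 0.10 (adjusted p = 0.0699) and Rasa1/inert at 0.17 ± 0.10 (adjusted p = 0.170), beside 5.88% of genes. The Nf1/inert value passed in 1 of 9 omissions of a KT mouse, that of mouse 1 (0.26, adjusted p = 0.0350). Less KT, the ratio of Nf1/Rasa1 to Rasa1/inert was 0.15 ± 0.06 (adjusted p = 0.102) and that to Nf1/inert 0.08 ± 0.06 (95% interval -0.06 to 0.21), beside 10% of additions. The first passed in 1 of 9 omissions of a KT mouse (adjusted p = 0.0313 without KT mouse 9). Between the Cas9 groups the Nf1/Rasa1 number effect was 0.27 ± 0.11 higher in H11-Cas9 (permutation, adjusted p = 0.0430), and its log2 ratio to Rasa1/inert was 0.23 ± 0.06 higher (adjusted p = 0.00498). Between the mice near 300000 spike-in cells these differences were 0.30 ± 0.12 (adjusted p = 0.0507) and 0.23 ± 0.07 (adjusted p = 0.0206).

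The 8 ordered guide combinations behind the Nf1/Rasa1 tumours pointed the same way in H11-Cas9. The pool held guides 1 and 2 of each gene (Nf1_V1, Nf1_V2, Rasa1_V1, Rasa1_V2), so combinations share their targets and are not independent. Mean size over inert/inert was lowest for Rasa1_V2 before Nf1_V2 (0.23 ± 0.09, 31 of 45 mice above 0). It was highest for Nf1_V2 before Rasa1_V1 (0.64 ± 0.15, 31 of 39 mice) and Nf1_V1 before Rasa1_V2 (0.63 ± 0.13, 32 of 44 mice). Unadjusted sign-flip p-values of the 8 combinations ran from 1e-05, the smallest the resampling can give, to 0.0190. Without Cas9 the same combinations ran from -0.16 ± 0.12 to 0.14 ± 0.12.

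No contrast of guide identity or order passed within the Nf1/Rasa1 tumours. With the Nf1 guide in place 1 rather than place 2, Nf1/Rasa1 tumours of H11-Cas9 mice were larger by 0.21 ± 0.08 in 27 of 45 mice (p = 0.0135, adjusted p = 0.0946 over 7 guide contrasts). Guide 2 minus guide 1 was -0.11 ± 0.07 for Nf1 and -0.14 ± 0.10 for Rasa1 inside Nf1/Rasa1 tumours. The corresponding differences beside inert guides were -0.05 ± 0.06 and -0.11 ± 0.07. In H11-LSL-Cas9 the order difference was -0.03 ± 0.11, and the combinations ran from -0.19 ± 0.15 for Rasa1_V1 before Nf1_V2 to 0.51 ± 0.17 for Nf1_V2 before Rasa1_V2. The latter had the smallest unadjusted p of the 8 in that group (exact p = 0.00696), over 16 mice.

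**Figure D5:**
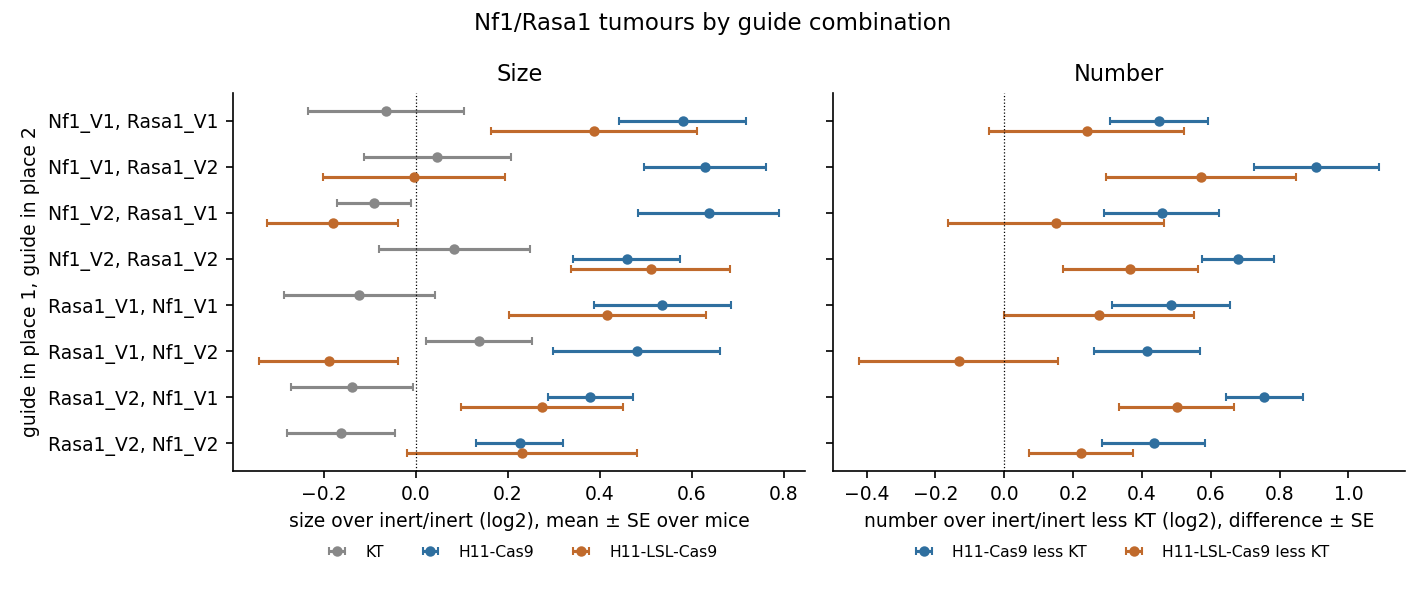
Size over inert/inert (left, log2, mean ± SE over mice) and number over inert/inert less the KT value (right, log2, difference ± SE) for each ordered guide combination of Nf1/Rasa1 tumours, named as guide in place 1 and guide in place 2. In H11-Cas9 all 8 size means lie above 0, from 0.23 to 0.64, and all 8 number differences lie between 0.42 and 0.91.

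The order of the combinations by number was not that by size. In H11-Cas9 all 8 combinations were more numerous relative to inert/inert than in KT, from 0.42 ± 0.15 for Rasa1_V1 before Nf1_V2 to 0.91 ± 0.18 for Nf1_V1 before Rasa1_V2. In H11-LSL-Cas9 they ran from -0.13 ± 0.29 to 0.57 ± 0.28, and 7 of 8 lay above 0. Single constructs rested on few tumours there, with 58 to 120 per combination over all mice, beside 174 to 429 in H11-Cas9.

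Tumours with different guides of the same gene in both places show what another cut in the same gene gives. In H11-Cas9, Nf1/Nf1 tumours exceeded inert/inert by 0.35 ± 0.08 and Rasa1/Rasa1 tumours by 0.24 ± 0.09 in size. Nf1/Rasa1 minus Nf1/Nf1 was 0.10 ± 0.08 (95% interval -0.07 to 0.27), and Nf1/Rasa1 minus Rasa1/Rasa1 was 0.22 ± 0.09 (41 mice, p = 0.0205, adjusted p = 0.0822 over 4 comparisons). In number less KT, the log2 ratio of Nf1/Rasa1 to Nf1/Nf1 was -0.0015 ± 0.08 and that to Rasa1/Rasa1 0.43 ± 0.12 (permutation, adjusted p = 0.0276 over 4 comparisons). Nf1/Nf1 tumours were themselves 1.496-fold and Rasa1/Rasa1 tumours 1.11-fold as many as in KT relative to inert/inert. Counts behind these were low, with a median of 14 Nf1/Nf1 and 9 Rasa1/Rasa1 tumours per mouse.

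Pairing with p53, a transcription factor that halts the cycle or triggers death of damaged cells, gave size effects on either side of that of Nf1/Rasa1 tumours. In H11-Cas9 the size effect was 0.54 ± 0.06 for Nf1/p53 (44 of 45 mice above 0) and 0.41 ± 0.05 for Rasa1/p53 tumours (42 of 45). Nf1/Rasa1 minus Nf1/p53 was -0.08 ± 0.06 (95% interval -0.19 to 0.03) and minus Rasa1/p53 0.05 ± 0.04 (95% interval -0.04 to 0.13). For number less KT the differences were -0.0038 ± 0.08 and 0.14 ± 0.08, and neither passed by permutation.

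Among all partners, Nf1 gave Rasa1 its largest pair in H11-Cas9 and Rasa1 gave Nf1 a pair near the top. By size, Nf1/Rasa1 ranked 1 of Rasa1's 16 pairs and 4 of Nf1's 16 pairs, and by number it ranked 2 and 3. Of Rasa1's 16 pairs, 9 passed as larger than inert/inert and 3 as larger than Rasa1/inert, with Nf1 (0.20) and p53 (0.16 ± 0.04, adjusted p = 0.00826) among those 3. Of Nf1's 16 pairs, 9 passed as larger than inert/inert and none as larger than Nf1/inert. The 2 that passed as smaller than Nf1/inert were Nf1/Keap1 (-0.32 ± 0.06, adjusted p = 0.000254), with a sensor of oxidative stress, and Nf1/Kmt2b (-0.73 ± 0.15, 9 mice, sign-flip permutation, adjusted p = 0.0459), with a histone methyltransferase. The interaction passed as negative in 7 of Nf1's pairs and 3 of Rasa1's, the shared pair being among both. All these values share the inert/inert tumours of the mouse, and the ranks carry no test.

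No detectable difference in the Nf1/Rasa1 values went with the spike-in total in H11-Cas9. The size effect was 0.54 in the 25 mice near 100000 cells and 0.36 in the 20 near 300000 cells, and the interaction was -0.28 and -0.15. Over 12 size and number values compared between these mice by permutation, 0 passed after adjustment and 0 had an unadjusted p under 0.05, the smallest unadjusted p being 0.101.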

How the data were processed

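The authors deposited a table with a read count and an estimated cell number for each tumour barcode. The deposited reads are raw counts. The deposited cells are a signal that the authors scaled from reads with spike-in barcodes, and within a mouse it is the reads times a single factor. How reads were aligned, grouped into barcodes and filtered was not given in the sources used. Groups came from the genotype label of each mouse. The guide named NE, tumours with the same guide in both places and spike-in entries were left out, and Nf1/Nf1 and Rasa1/Rasa1 refer to different guides. Both places and all guides of a gene were combined.

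A size comparison needed at least 5 tumours of each genotype in the mouse (10 for percentiles, 2 for a single guide combination), and a number comparison at least 5 inert/inert tumours. Sign flips were exact up to 16 mice and used 100000 resamples otherwise. Comparisons between groups permuted mouse labels 100000 times on the difference over its standard error, with the plain difference as an alternative. Intervals of 95% came from inverting these tests. The tests were run on all genes and pairs of the pool, checked on simulated data, in Python 3.11.15 (scipy 1.17.1, numpy 2.4.6, pandas 2.3.3). Plots used matplotlib 3.10.9. Named partners were p53 and pairs that passed a size or interaction test in H11-Cas9. The genotypes, the partner lists and the settings were chosen with earlier results of these data known. Some alternatives were chosen after seeing the data. These were the limit of 20 tumours per genotype for the size interaction, and leaving out single Cas9 mice. For the Cas9 groups they were the plain difference and the mice near 300000 cells. The shares of very large tumours, with their other settings such as a limit of 10 tumours, were also chosen then. Some results are not reported here. Guide sequences and their genome positions were not used here.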

Additional observations from a re-analysis of the deposited data

Results flagged for a closer look

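Among the 9 KT mice, 3 of 12 size and number values had a mouse far from the others, where chance marks about 1 in 20 such groups. Mouse 5 stood apart in the size of Rasa1/inert over inert/inert tumours (0.37). Mouse 1 stood apart in the number of Nf1/inert over inert/inert tumours (1.33), and mouse 9 in the number interaction (-1.49). These are log2 values, and the last is the Nf1/Rasa1 ratio to inert/inert minus both single ratios, which holds the unequal shares of the constructs in the pool.

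Of the 12 values compared between the Cas9 groups by permutation, 6 differed after adjustment, and 2 when the mice near 300000 spike-in cells alone were compared (Rasa1/inert in size, and Nf1/Rasa1 against Rasa1/inert in number). Taking H11-Cas9 minus H11-LSL-Cas9, the differences in size against inert/inert were 0.28 for Nf1/Rasa1, 0.32 for Nf1/inert and 0.35 for Rasa1/inert tumours, and the size interaction differed by -0.39. In number, Nf1/Rasa1 tumours differed by 0.27 against inert/inert and by 0.23 against Rasa1/inert.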

How the results depend on the processing

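No paired analysis was possible because replicate numbers follow accession order and pair no mice, and size was compared inside each mouse. Values are log2 unless called points. In H11-Cas9 the size effects of Nf1/Rasa1 and Nf1/inert against inert/inert kept their direction under every alternative run.

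Keeping tumours of at least 500 cells left 10 H11-Cas9 mice for inert/inert, and 3 calls against inert/inert were lost: Nf1/Rasa1 at 0.35, Rasa1/inert at 0.31 and the interaction at -0.61. The excess over Rasa1/inert was lost at 500 (0.28) and 1000 cells (0.27), for the median (0.16) and near 300000 cells (0.17). Its difference from Nf1/inert was -0.0025 at 1000 cells. The interaction call was also lost for the arithmetic mean (-0.48), the median (-0.086), near 300000 cells (-0.15) and with both Cas9 groups together (-0.12). The difference of the Nf1/Rasa1 effect from KT was lost near 100000 (0.54) and 300000 cells (0.45). At the 75th percentile Nf1/Rasa1 minus Nf1/inert was 0.030. For tumours of at least 10000 cells, near 300000 cells the excess was 0.059 points over Nf1/inert and 1.14 over Rasa1/inert, and at 1000 cells it was 1.04 over Rasa1/inert. Against Rasa1/p53 a minimum of 200 cells brought a call (0.15).

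In H11-LSL-Cas9 the Nf1/Rasa1 size effect passed with at least 10 tumours (0.26), the arithmetic mean (1.07), the largest tumours by adaptive sampling (0.86), both groups together (0.38), less KT at 200 cells (0.42) and at the 95th percentile (1.10). Nf1/inert passed for the arithmetic mean (1.35), adaptive sampling (0.69) and both groups (0.34), and stood at -0.038 for the median. Nf1/Rasa1 over Rasa1/inert passed at 0.91 (arithmetic), 0.66 (adaptive), 0.27 (mice weighted by tumours) and 0.21 (both groups). Nf1/Rasa1 minus Nf1/inert turned at 200 (-0.23), 500 (-0.25) and 1000 cells (-0.018) and for the arithmetic mean (-0.29), and was 0.10 at the 75th percentile. Rasa1/inert turned at 200 cells (0.042), and for arithmetic (0.074), adaptive (0.13) and both groups (0.16). The interaction turned at 200 cells (-0.13, and -0.15 less KT), for the arithmetic mean (-0.36) and with both groups (-0.12). At 1000 cells the share of Nf1/Rasa1 tumours over inert/inert was 3.01 points and not called.

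Number values in this paragraph are less KT. For number in H11-Cas9, Nf1/Rasa1 over Nf1/inert was not called by plain means (0.17), at 200 (0.21) or 1000 cells (0.21), near 100000 (0.19) or 300000 cells (0.15), or in mice named LA (0.19). Rasa1/inert was not called by plain means (0.20), at 200 cells (0.19), near 100000 (0.19) or 300000 cells (0.22), or in LA mice (0.16). The interaction turned at 200 cells (0.018), near 100000 cells (0.0024) and in LA mice (0.027). In H11-LSL-Cas9, Nf1/Rasa1 was not called by plain means (0.31), at 200 cells (0.37) or near 300000 cells (0.32), and passed over Rasa1/inert at 200 (0.44) and 1000 cells (1.01). Counting NE as inert or taking number over all tumours brought calls for Nf1/inert (0.37 and 0.44) and Rasa1/inert (0.34 and 0.37), and Rasa1/inert turned at 200 (-0.068) and 1000 cells (-0.19). The interaction there turned at 200 (0.38) and 1000 cells (0.24). Of 12 values, 6 differed between the Cas9 groups, and 2 near 300000 cells. The causes were not tested.

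Leaving out each mouse in turn, the H11-Cas9 interaction stayed between -0.24 and -0.20 and called. In H11-LSL-Cas9, Nf1/Rasa1 over Nf1/inert ran from -0.0012 (without mouse 2) to 0.064 and over Rasa1/inert from 0.20 to 0.27. Without each KT mouse, the H11-LSL-Cas9 numbers less KT ran from 0.13 to 0.18 for Nf1/Rasa1 over Rasa1/inert and from 0.22 to 0.26 for Nf1/inert. Size against inert/inert at 1000 cells gave no value, for lack of inert/inert tumours.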

Other observations

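In H11-LSL-Cas9 mice, Nf1/inert tumours were larger with the Nf1 guide in place 1 than in place 2, by 0.33 ± 0.09 on the log2 scale in 15 of 18 mice (sign-flip permutation p = 0.00246, adjusted p = 0.0172 over 7 guide contrasts). The same difference was 0.0016 ± 0.06 in H11-Cas9 and -0.04 ± 0.06 in KT mice, and whether the groups differ in it was not tested. For Rasa1/inert tumours place 1 minus place 2 was -0.11 ± 0.09 in H11-LSL-Cas9.

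By inert partner, the mean size effect of Nf1 in H11-Cas9 ran from 0.32 ± 0.17 beside the guide safe_V3 to 0.61 ± 0.13 beside EGFP. For Rasa1 it ran from 0.21 ± 0.13 beside NT to 0.27 ± 0.05 beside safe_V1. No test was made between inert partners.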
